A study of Mus musculus with 14 samples.

Results

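The voltage-gated sodium, calcium and potassium channel genes are described here in the cortex and hippocampus of C57BL/6 mice aged 3 months. The genes were taken by name: the sodium channel alpha and beta subunits (Scn with a digit and a or b), the calcium channel alpha1, alpha2delta and beta subunits (Cacna1, Cacna2d, Cacnb) and the potassium channel alpha subunits of the Kcna, Kcnb, Kcnc, Kcnd, Kcnh and Kcnq families. The names matched 62 genes. Of these, 49 reached 0.5 FPKM (fragments scaled by transcript length and sequencing depth) in at least 1 condition when their rows were summed, among 13049 genes of all kinds that did so. In each tissue 48 channel genes passed, 47 of them in both, with Kcnh4 passing in cortex only and Kcnb2 in hippocampus only. Scn7a in both tissues, and Kcna5, Cacna1d and Kcnb2 in hippocampus, passed through some conditions only, so their ratios between conditions are partly fixed by the limit. The 13 genes below it in every condition include the skeletal muscle channels Scn4a and Cacna1s, the retinal channel Cacna1f and the sensory neuron channels Scn9a, Scn10a and Scn11a.

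The study compared control mice with mice depleted of TRF2, a telomere-binding protein encoded by Terf2, with Cre under Dcx, a promoter active in immature neurons, so cells without a Dcx history are not targeted. The series title poses the question of how far neurons need functional telomeres. The labels give 4 controls and 3 depleted samples for cortex and 3 of each for hippocampus, and 1 further sample whose labels name both tissues was placed in no group. The hippocampus table also holds a condition named DKO that no label describes, so its genotype is not stated here. The strain and age above are those of the labelled samples, and for DKO neither is given. The labels do not say whether the samples came from separate animals, and the deposited p-values then measure only the spread between these samples, which may be technical. Samples were pooled by the authors into 1 value per condition and row, so no replicate value, SD or read depth can be given for any level below. A row is a group of transcripts with the same coding sequence. A gene was called when the most abundant of its tested rows had a q of at most 0.05 in the authors' test.

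Terf2, the targeted gene, had lower values after depletion in both tissues but passed no test. Summed over its rows in the authors' deposited table, Terf2 had 3.59 FPKM in control cortex and 0.202 FPKM after depletion (log2 ratio -4.15), with p = 0.105 and q = 0.576 for its most abundant row. In hippocampus the sums from the authors' deposited table were 2.01 FPKM in control, 0.883 FPKM in TRF2-depleted and 0.753 FPKM in DKO tissue, and no Terf2 row was tested there. In bulk tissue, fewer cells of a type and less RNA per cell cannot be told apart.

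Voltage-gated channels are membrane pores opened by depolarisation. Sodium channels (Nav) drive the upstroke of the action potential, and their beta subunits steer gating and placement on the axon. Calcium channels (Cav) couple depolarisation to transmitter release, dendritic signalling and burst firing, with alpha2delta and beta subunits that carry the pore to the membrane. Potassium channels (Kv) end the action potential and set the threshold and rate of firing. Cortical and hippocampal neurons each express many of these genes at once.

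TRF2 binds the telomere repeat TTAGGG, and the upstream sequences of the channel genes were read for this motif. RefSeq windows (GRCm38.p6, 250 bases before to 50 after a transcript start) were at hand for 34 of the 49 genes, as 48 windows, since some genes have several starts. The motif TTAGGG, or CCCTAA when read on the other strand, lay in 4 of the 48 channel windows (8.33%) and in 3483 of all 32851 windows (10.6%). The share in channel genes was thus close to that in all genes. The stretches that hold it are shown with the motif in capitals because they are the channel sequences with the letters that TRF2 is known to bind, and a match describes only the letters. Each stretch is placed by the RefSeq start it precedes, which is not always the first start of the gene, and overlaps no exon of its gene in GENCODE. The Cacna1i stretch is chr15:80287083-80287112 (plus strand), with the motif on the other strand and beginning 143 bases before the RefSeq start. The Kcnq5 stretch is chr1:21961982-21962011 (minus strand), with the motif 57 bases before 1 of 2 RefSeq starts. That start is also the start of the GENCODE gene, and the stretch lies outside the gene. The Kcnc2 stretch is chr10:112271245-112271272 (plus strand), with the motif 16 bases before the most downstream of 4 RefSeq starts, and it lies inside the GENCODE gene, 124 bases after that gene's start. The Scn8a stretch is chr15:100936028-100936057 (plus strand), with the motif 231 bases before an alternative RefSeq start, and it lies 66170 bases after the start of the GENCODE gene.
Cacna1i: ccagcggtgcgaCCCTAAattgttaggagg
Kcnc2: taaggggtctagTTAGGGaggagcgctt
Kcnq5: tgggagaccgacTTAGGGtcaagccggtat
Scn8a: atatgcccacagTTAGGGagaccccagtct

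None of these 4 genes had a deposited p under 0.05 in any comparison. The deposited p in TRF2-depleted against control cortex was 0.173 for Cacna1i and 0.205 for Scn8a in the authors' deposited table, and in hippocampus it was 0.29 for Kcnc2.

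Across the 4 comparisons no channel gene was called. In cortex, 0 of 38 tested channel genes passed Cuffdiff, the authors' test, while 0.323 percent of all 8658 tested genes did. An unadjusted p under 0.05 was held by 5 channel genes (13.2%), 3 higher and 2 lower, beside 6.6 percent of all tested genes. In TRF2-depleted against control hippocampus, 0 of 42 tested channel genes passed Cuffdiff beside 0.183 percent of 9824 genes. There 2 channel genes (4.76%), 1 higher and 1 lower, had a p under 0.05, beside 5.21 percent of all. In DKO against control, 0 of 41 passed Cuffdiff beside 0.204 percent of 9816 genes, and 3 (7.32%), all higher, had a p under 0.05 beside 7.18 percent. In DKO against TRF2-depleted hippocampus, 0 of 42 passed Cuffdiff beside 0.153 percent of 9818 genes, and 3 (7.14%), all higher, had a p under 0.05 beside 5.08 percent. The 3 hippocampus comparisons share their columns and are not independent of each other.

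With such low shares of calls, a count of 0 among 38 to 42 channel genes is near the background. In cortex the smallest deposited q of a channel gene was 0.188, for Kcna4, in the authors' deposited table. A Benjamini-Hochberg adjustment of the deposited p within cortex gave 0.426 for Kcna4. What the deposited cortex q was adjusted over is unknown, so it is not on the same footing as the hippocampus q. In TRF2-depleted against control hippocampus it was 0.634, for Cacna1h, and in DKO against TRF2-depleted 0.656, for Cacna2d1, in the authors' deposited table. The genes with a p under 0.05 that are described below did not pass.

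The levels as a group were close to even. In cortex 26 channel genes were higher and 22 lower in TRF2-depleted tissue, with a median log2 ratio of 0.03 beside -0.03 for all genes. In TRF2-depleted hippocampus 22 were higher and 26 lower than control, with a median of -0.03 beside 0.01 for all genes. DKO against control gave 23 higher and 25 lower (median -0.01, all genes 0.02), and DKO against TRF2-depleted gave 27 higher and 21 lower (median 0.06, all genes 0.01). No median lay further than 0.1 log2 units from 0. The typical size of a ratio, the median of its absolute log2 value, was 0.17 in cortex beside 0.17 for all genes, and 0.22, 0.19 and 0.21 in the hippocampus comparisons beside 0.18, 0.19 and 0.17. Ratios of at least 2-fold were found for 1, 4, 5 and 1 channel genes in the same order of comparisons, or 2.08%, 8.33%, 10.4% and 2.08%, beside 4.82%, 7.27%, 6.71% and 6.17% of all genes. Cacna1d is among the 4 and the 5, and Kcnb2 is among the 5. Both passed the limit in hippocampus through some conditions only, so these counts are partly fixed by it. The same limit was applied to all genes.

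**Figure D1:**
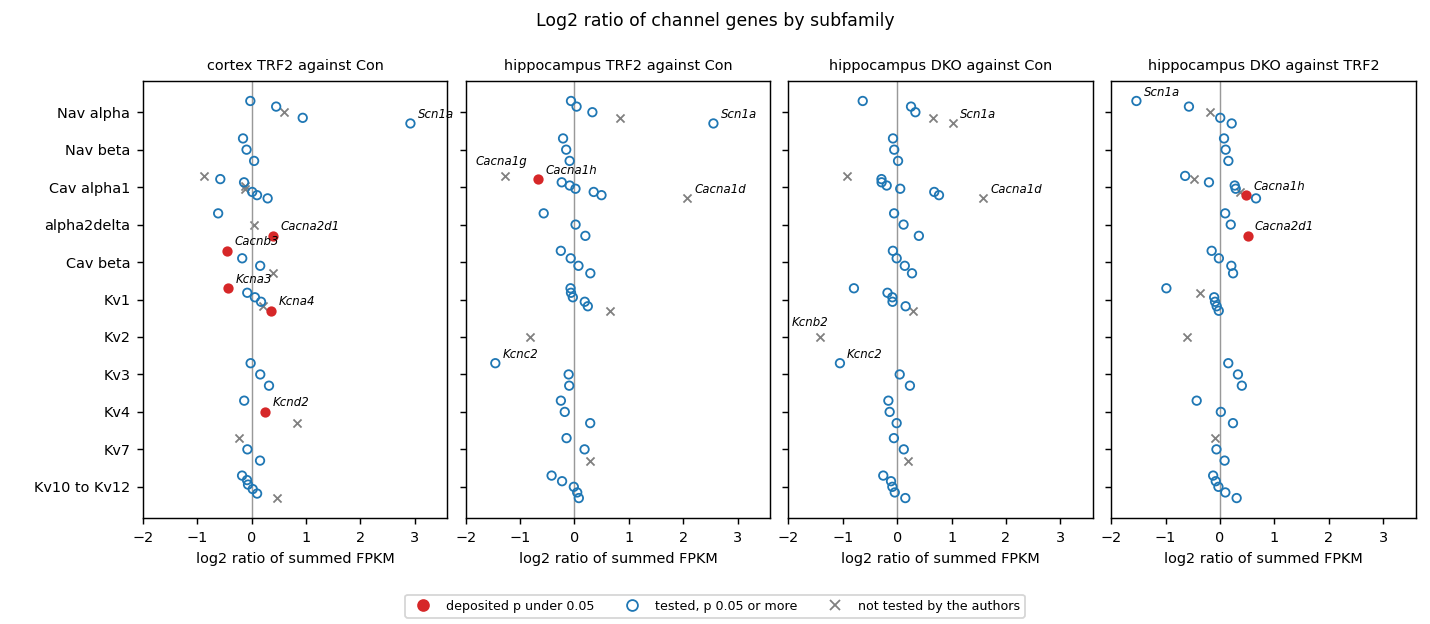
Log2 ratio of summed FPKM for channel genes (horizontal axis), by subfamily (vertical axis), in the 4 comparisons, with 44 genes drawn in each of them. Filled points have a deposited p under 0.05 (5, 1, 0 and 2 of the drawn genes), open points were tested with a larger p, and crosses were not tested by the authors. Most points lie near 0 with few genes beyond 1 log2 unit, and no point passed the authors' q.

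The members differed far more in level than between conditions. Hippocampus values of genes kept in both tissues lay between 0.315 FPKM for Scn7a and 45.5 FPKM for Scn2b in control tissue among the genes named here. At the limit of 0.5 FPKM, the genes just inside it were Kcna5 (0.586 and 0.68 FPKM in control and TRF2-depleted cortex, and 0.428, 0.676 and 0.521 FPKM in control, TRF2-depleted and DKO hippocampus) and Scn7a (0.476 and 0.717 FPKM in cortex, and 0.315, 0.563 and 0.495 FPKM in hippocampus). Kcnb2, also just inside, was at 0.59, 0.336 and 0.222 FPKM in hippocampus. Just outside were Kcnh4 in hippocampus (0.412, 0.251 and 0.312 FPKM) and Kcnh6 in cortex (0.158 and 0.315 FPKM).

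**Figure D2:**
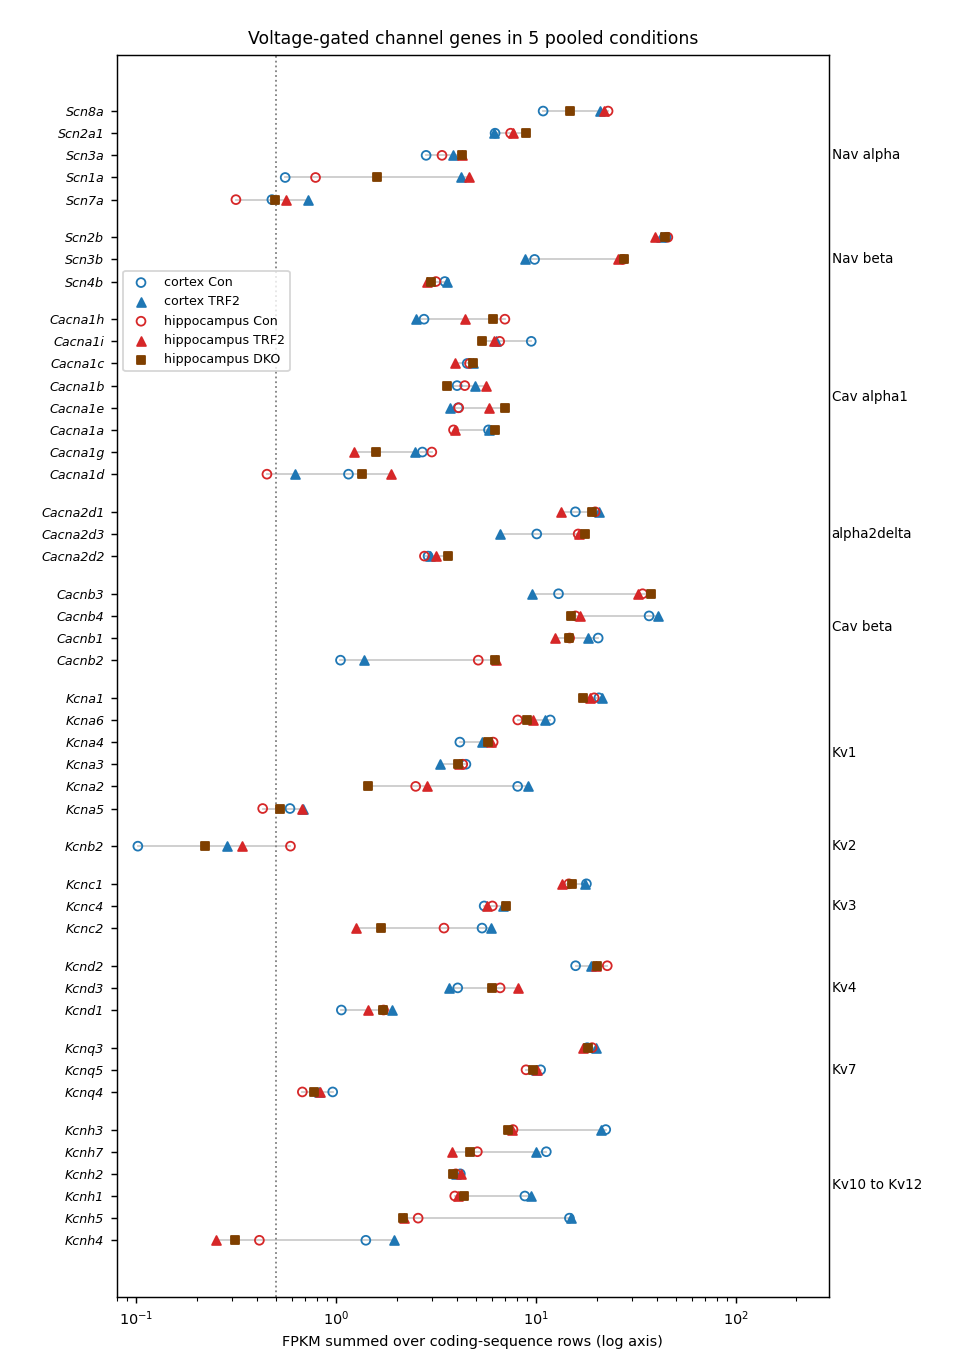
FPKM summed over rows (horizontal log axis) of 45 channel genes (vertical axis) in the 5 pooled conditions, grouped by subfamily, with a dotted line at the limit of 0.5 FPKM. Each marker is the authors' pooled value of 1 condition, so there are no error bars. Scn2b reaches 45.5 FPKM, and Kcnh5, Kcnh3 and Cacnb4 show cortex markers set apart from hippocampus markers.

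The sodium channel alpha subunits form the pore. Scn8a encodes Nav1.6, the main channel of the axon initial segment and nodes, Scn2a1 encodes Nav1.2, Scn3a encodes Nav1.3, and Scn1a encodes Nav1.1, known for its role in fast-spiking interneurons. Of the 5 that passed the limit, 4 were higher in TRF2-depleted cortex, 4 in TRF2-depleted hippocampus and 4 in DKO hippocampus than in control, with 0 called and 0 at a p under 0.05 by Cuffdiff in each. Each of these counts of 4 includes Scn7a, which was not tested. It passed the limit only through TRF2-depleted tissue, so its direction against control was partly fixed by the limit. Scn1a had the largest log2 ratio of any channel gene. Its sums were 0.555 FPKM in control cortex and 4.2 FPKM after TRF2 depletion (log2 ratio 2.92, p = 0.126 in the authors' deposited table). In hippocampus the authors' deposited table gives 0.787 FPKM in control, 4.63 FPKM in TRF2-depleted and 1.59 FPKM in DKO tissue, with a log2 ratio of 2.56 in TRF2-depleted against control (p = 0.276) and no test in DKO against control. Both control values are low and both TRF2-depleted values lie between 4 and 5 FPKM, yet neither difference passed the authors' test. The deposited Scn1a locus spans chr2:66270782-66634962 (mm10), past the end of the GENCODE gene at 66440840. Scn9a, which stayed below the limit in every condition, is deposited with the same locus. How fragments were divided between these genes was not given in the sources used here.

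Scn8a (chr15:100870591-101045938) had 10.8 FPKM in control cortex and 20.7 FPKM after TRF2 depletion, a log2 ratio of 0.94 with p = 0.205 in the authors' deposited table. In hippocampus it was at 22.8, 21.9 and 14.7 FPKM in control, TRF2-depleted and DKO tissue. The DKO value of Scn8a is thus the lowest of the 3 in hippocampus, while the cortex control value is the lowest of all 5. Scn2a1 stayed between 6.11 and 6.22 FPKM in cortex and had 7.44, 7.64 and 8.87 FPKM in hippocampus. Scn3a had 2.81 and 3.84 FPKM in cortex and 3.38, 4.24 and 4.25 FPKM in hippocampus.

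Interneuron markers were read beside Scn1a. The summed level of 7 markers (Gad1, Gad2, Pvalb, Sst, Vip, Lhx6 and Erbb4) was 215 and 228 FPKM in control and TRF2-depleted cortex and 293, 325 and 332 FPKM in hippocampus. Of the 7, 4 were higher and 3 lower in TRF2-depleted cortex, with 0 called by Cuffdiff. Pvalb, the parvalbumin of fast-spiking interneurons, was at 29.3 and 36.2 FPKM (log2 ratio 0.30, p = 0.0384, q = 0.426) in the authors' deposited table. Erbb4, a neuregulin receptor, had the largest ratio of the 7 and was lower, at 2.74 and 0.982 FPKM (log2 ratio -1.48, p = 0.0515, q = 0.473) in the authors' deposited table. None of the 7 was at 0, and their part in the Scn1a values was not tested.

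The sodium channel beta subunits shape gating and act as adhesion molecules. Scn2b was at 44.6 and 41.8 FPKM in cortex and at 45.5, 39.3 and 43.8 FPKM in hippocampus. Scn3b had 9.8 and 8.77 FPKM in cortex and 27.2, 25.5 and 27.5 FPKM in hippocampus. Scn4b had 3.48 and 3.59 FPKM in cortex and 3.15, 2.83 and 2.98 FPKM in hippocampus. Each of Scn2b, Scn3b and Scn4b had its lowest hippocampus value in TRF2-depleted tissue, and none was called or had a p under 0.05 by Cuffdiff in any comparison.

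The calcium channel alpha1 subunits form the calcium pore. Cacna1i and Cacna1g encode T-type channels of low threshold, as does Cacna1h, whereas Cacna1a and Cacna1b encode the P/Q-type and N-type channels of nerve terminals and Cacna1c and Cacna1d the L-type channels. Cacna1h (chr17:25370553-25433783) was the 1 calcium pore gene with a p under 0.05. In hippocampus it was at 6.96 FPKM in control, 4.38 FPKM in TRF2-depleted and 6.09 FPKM in DKO tissue. The TRF2-depleted value lay below both others, with a log2 ratio of -0.67 against control (p = 0.0101, q = 0.634) and with DKO above TRF2-depleted by 0.48 (p = 0.0256, q = 0.819) in the authors' deposited table. In cortex Cacna1h was at 2.74 and 2.51 FPKM and was not tested. Its locus overlaps Tpsg1 on the opposite strand, and whether counting used strand was not given in the sources used here.

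Dentate granule neuron markers were read beside Cacna1h. Their summed level over 7 markers (Prox1, Dsp, C1ql2, Stxbp6, Fam163b, Lct and Calb1) was 90.8 FPKM in control, 52.2 FPKM in TRF2-depleted and 62.2 FPKM in DKO hippocampus. Of the 7, 5 fell in TRF2-depleted against control and 3 fell in DKO against control at the authors' q, and none was at 0. The order of the 3 conditions is the same as for Cacna1h. The part of these cells in the Cacna1h value was not tested.

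Cacna1i had 9.43 and 6.32 FPKM in the cortex groups (log2 ratio -0.58, p = 0.173 in the authors' deposited table) and at 6.56, 6.17 and 5.37 FPKM in hippocampus. The third T-type gene, Cacna1g, had 2.69 and 2.48 FPKM in cortex and 3.0, 1.23 and 1.58 FPKM in hippocampus, where it was not tested. In TRF2-depleted hippocampus all 3 T-type genes were below control, although the authors tested only Cacna1h and Cacna1i. Cacna1d was at 0.45 FPKM in control, 1.88 FPKM in TRF2-depleted and 1.35 FPKM in DKO hippocampus, also untested, and at 1.15 and 0.622 FPKM in cortex. Cacna1a had 5.77 and 5.8 FPKM in cortex and 3.85, 3.9 and 6.18 FPKM in hippocampus, Cacna1b 4.01 and 4.92 FPKM in cortex and 4.39, 5.61 and 3.6 FPKM in hippocampus. Cacna1b in DKO against TRF2-depleted had a p of 0.0535 in the authors' deposited table. Over the 8 alpha1 genes the counts were 3 higher and 5 lower in cortex, and 4 and 4 in both hippocampus comparisons with control.

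The alpha2delta subunits bring calcium channels to the surface, and some of them bind gabapentinoid drugs. Cacna2d1 (chr5:15934691-16374540) had 15.7 FPKM in control cortex and 20.5 FPKM after TRF2 depletion (log2 ratio 0.39, p = 0.0273 and q = 0.376 for its most abundant row in the authors' deposited table). In hippocampus the order was the other way round, with 19.7 FPKM in control, 13.3 FPKM in TRF2-depleted and 18.9 FPKM in DKO tissue. Its most abundant row in hippocampus held 16.7 and 13.3 FPKM in those first 2 conditions, with p = 0.298 in the authors' deposited table. The log2 ratio of this row was -0.33 beside -0.57 for the sums. A second tested row held 2.95 and 0.00142 FPKM, with p = 0.222 in the authors' deposited table. DKO against TRF2-depleted had p = 0.0110 and q = 0.656, in the authors' deposited table. Whether the tissues differ was not tested, since the tables were normalised separately and hold pooled values. Cacna2d3 was at 10.05 and 6.55 FPKM in cortex and at 16.2, 16.4 and 17.5 FPKM in hippocampus.

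The beta subunits bind the inside of the calcium pore. Cacnb3 (chr15:98632328-98644611) had 12.9 FPKM in control cortex and 9.47 FPKM after TRF2 depletion (log2 ratio -0.45). The row tested for it held 11.8 and 7.34 FPKM, with p = 0.0156 and q = 0.301 in the authors' deposited table. In hippocampus Cacnb3 was at 34.0, 32.4 and 37.4 FPKM. The hippocampus sign in TRF2-depleted against control depends on the row, with -0.07 for the sum and 0.17 for the most abundant row. Cacnb4, mutated in the epileptic lethargic mouse, was at 36.6 and 40.8 FPKM in cortex and at 15.7, 16.5 and 14.8 FPKM in hippocampus. Cacnb1 had 20.4 and 18.1 FPKM in cortex and 14.7, 12.3 and 14.6 FPKM in hippocampus. Cacnb2 had 1.05 and 1.37 FPKM in cortex and 5.12, 6.27 and 6.19 FPKM in hippocampus.

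The 2 channel genes with the smallest p in cortex both encode A-type potassium channels, which open fast and inactivate fast. Kcna4 (Kv1.4, chr2:107290589-107298504) had 4.15 FPKM in control cortex and 5.33 FPKM after TRF2 depletion, a difference of 28.5% (log2 ratio 0.36, p = 0.00585, q = 0.188) in the authors' deposited table. Kcnd2 (Kv4.2, chr6:21216109-21729805) was at 15.7 and 18.7 FPKM, a difference of 18.97% (log2 ratio 0.25, p = 0.0148, q = 0.291) in the authors' deposited table. In hippocampus neither was higher in TRF2-depleted tissue. Kcna4 had 6.08, 5.96 and 5.71 FPKM there in control, TRF2-depleted and DKO tissue, and Kcnd2 had 22.6, 19.997 and 20.2 FPKM. The 250 bases before the RefSeq start of each gene (GRCm38.p6, plus strand) are shown because these genes lead the cortex comparison, at chr2:107290339-107290588 for Kcna4 and chr6:21215096-21215345 for Kcnd2. Neither window holds TTAGGG or CCCTAA, so no letters are in capitals.
Kcna4: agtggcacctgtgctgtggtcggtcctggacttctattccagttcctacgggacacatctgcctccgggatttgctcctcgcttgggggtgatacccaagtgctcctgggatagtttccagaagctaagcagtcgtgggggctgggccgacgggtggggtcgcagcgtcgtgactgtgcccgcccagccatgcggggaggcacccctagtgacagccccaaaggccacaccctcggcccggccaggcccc
Kcnd2: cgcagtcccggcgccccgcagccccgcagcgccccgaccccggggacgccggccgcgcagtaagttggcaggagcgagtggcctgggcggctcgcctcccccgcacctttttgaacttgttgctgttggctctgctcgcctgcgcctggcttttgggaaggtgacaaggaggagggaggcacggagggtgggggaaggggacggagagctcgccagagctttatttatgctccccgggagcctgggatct

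Striatal neuron markers were read beside Kcna4, Kcnd2 and the other cortex genes above, and none of them passed the authors' test. Of 9 markers listed, 8 were found in the tables and 6 passed the limit. The list summed to 49.7 FPKM in control cortex and 65.3 FPKM after TRF2 depletion. All 6 had a higher value after depletion, 0 were called by Cuffdiff, and 2 had a p under 0.05, Drd1a at 4.53 and 5.89 FPKM (p = 0.0112) and Rgs9 at 3.84 and 5.59 FPKM (with p = 0.0195) in the authors' deposited table. Of the other 2 found, Penk is listed at 0 in TRF2-depleted cortex and Adora2a is close to 0 in both groups. The part of striatal tissue in the channel values was not tested.

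Among the other Kv1 genes, which encode low-threshold channels of axons, Kcna3 (Kv1.3, chr3:107036162-107038129) had 4.45 and 3.29 FPKM in the cortex groups (log2 ratio -0.44, p = 0.0248, q = 0.362) in the authors' deposited table. In hippocampus Kcna3 was almost level at 4.29, 4.1 and 4.04 FPKM. Kv1.3 is also known from microglia, and the summed level of 4 microglial markers (Cx3cr1, P2ry12, Tmem119 and C1qa) was 22.1 and 18.7 FPKM in cortex. Of the 4, 3 were lower, with P2ry12 listed at 0 in TRF2-depleted tissue and C1qa at 12.2 FPKM and then 9.8 FPKM (p = 0.0459), as the authors' deposited table has them. In hippocampus the microglial sum was 35.0, 33.0 and 38.6 FPKM in control, TRF2-depleted and DKO tissue. Against control, 3 of the 4 markers were lower in TRF2-depleted and 3 were higher in DKO tissue. In DKO against control 2 had a p under 0.05 by Cuffdiff, both higher. For Kcna3 the same comparison gave p = 0.692 in the authors' deposited table. The part of microglia in the Kcna3 values was not tested. Kcna1 (Kv1.1) led the family at 20.6 and 21.4 FPKM in cortex and 19.5, 18.5 and 17.2 FPKM in hippocampus. Kcna6 had 11.7 and 11.1 FPKM in cortex and 8.08, 9.57 and 8.99 FPKM in hippocampus. Kcna2 (Kv1.2) had 8.07 and 9.08 FPKM in cortex and 2.49, 2.84 and 1.44 FPKM in hippocampus. All 6 Kv1 genes that passed the limit were lower in DKO than in TRF2-depleted hippocampus, with a median log2 ratio of -0.10. By Cuffdiff 0 of the 5 tested were called and 0 had a p under 0.05.

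The Kv3 channels allow fast spiking through rapid closing. Kcnc1 (Kv3.1) was at 17.8 and 17.6 FPKM in cortex and at 14.5, 13.5 and 15.0 FPKM in hippocampus. Kcnc2 (Kv3.2) was at 5.35 and 5.97 FPKM in cortex and at 3.45, 1.26 and 1.66 FPKM in hippocampus, a log2 ratio of -1.46 in TRF2-depleted against control with p = 0.29 in the authors' deposited table. Kcnc2 was thus lower than control in both other hippocampus conditions. Kcnc4 (Kv3.4) had 5.49 and 6.84 FPKM in cortex and 6.03, 5.64 and 7.09 FPKM in hippocampus. Kcnc1, Kcnc2 and Kcnc4 were each higher in DKO than in TRF2-depleted hippocampus, and none was called or had a p under 0.05 by Cuffdiff in any comparison.

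Other marker lists that stood apart in the hippocampus conditions are given beside the values above. The summed level of 6 choroid plexus markers was 276 FPKM in control, 489 FPKM in TRF2-depleted and 9.81 FPKM in DKO hippocampus, and in cortex it was 96.4 and 1.87 FPKM. Of these markers 3 fell in DKO against control. The summed level of 5 meningeal fibroblast markers was 194, 306 and 316 FPKM in hippocampus, with 1 of 5 called higher in TRF2-depleted and 1 of 5 in DKO against control. Of 5 thalamic markers, with sums of 14.3, 16.6 and 16.7 FPKM, 1 (Zic1) rose in both comparisons with control. As a list these markers were mixed, with 3 higher and 2 lower in TRF2-depleted than in control hippocampus. In DKO against control 2 were higher and 3 lower, with a median log2 ratio of -0.22. There 3 had a p under 0.05 by Cuffdiff, 2 higher and 1 lower. The 5 pan-neuronal markers had sums of 960, 977 and 982 FPKM in hippocampus and 1173 and 1200 FPKM in cortex, with 0 called by Cuffdiff and 0 at a p under 0.05. The summed level of 5 CA pyramidal markers was 68.4, 68.9 and 85.3 FPKM in control, TRF2-depleted and DKO hippocampus, above the 22.3 and 22.8 FPKM in cortex. All 5 CA markers were higher in DKO than in both other conditions, with 0 called by Cuffdiff. Those with a p under 0.05 were Fibcd1 in DKO against control (15.5 and 21.6 FPKM, with p = 0.0007 and q = 0.205) and Wfs1 in DKO against TRF2-depleted (23.6 and 28.3 FPKM, with p = 0.0292) in the authors' deposited table. The part of these tissues in the channel values was not tested.

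In the rest of the Kv4 family, Kcnd3 (Kv4.3) had 4.05 and 3.67 FPKM in cortex and 6.59, 8.06 and 5.99 FPKM in hippocampus. Kcnd1 (Kv4.1) had 1.06 and 1.9 FPKM in cortex, where it was not tested, and 1.72, 1.448 and 1.71 FPKM in hippocampus. All 3 Kv4 genes were lower in DKO than in control hippocampus, with a median log2 ratio of -0.14 and, by Cuffdiff, 0 called and 0 at a p under 0.05.

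The Kv7 genes encode the M-current, which restrains repetitive firing. Kcnq3 was at 17.97 and 19.98 FPKM in cortex and at 19.0, 17.2 and 18.2 FPKM in hippocampus. It was lowest in TRF2-depleted hippocampus and higher than control in TRF2-depleted cortex. Kcnq5 had 10.51 and 9.94 FPKM in cortex and 8.88, 10.1 and 9.66 FPKM in hippocampus. Neither Kcnq3 nor Kcnq5 was called or had a p under 0.05 by Cuffdiff in any comparison.

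The Kv10 to Kv12 genes (Kcnh) encode the ether-a-go-go family, which includes the ERG channel Kcnh2. Most had close levels between conditions and unequal levels between tissues. Kcnh3 was at 22.2 and 20.9 FPKM in cortex and at 7.64, 7.58 and 7.18 FPKM in hippocampus. Kcnh5 was at 14.6 and 14.8 FPKM in cortex and at 2.56, 2.19 and 2.15 FPKM in hippocampus. Kcnh7 had 11.2 and 9.92 FPKM in cortex and 5.07, 3.79 and 4.69 FPKM in hippocampus. Kcnh1 had 8.76 and 9.38 FPKM in cortex and 3.91, 4.05 and 4.34 FPKM in hippocampus, and Kcnh2 lay between 3.83 and 4.18 FPKM in all 5 conditions. By Cuffdiff 0 of the 5 tested in each comparison were called and 0 had a p under 0.05. Kcnh3 and Kcnh1 overlap Mcrs1 and Hhat on the opposite strand, and Kcnh7 overlaps Gca. The deposited Kcnh3 locus on chr15 ends at 99262041 (mm10), past the end of the GENCODE gene at 99242817.

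The levels in control cortex and control hippocampus were compared gene by gene. Since the tables were normalised separately and hold 1 pooled value per group, the levels are set side by side with no test. Of the 47 genes kept in both tissues, 25 were higher in cortex and 22 in hippocampus, with a median log2 ratio of cortex over hippocampus of 0.06 beside -0.09 for all 12064 genes kept in both. A ratio of at least 2-fold was found for 14 of the 47 (29.8%) beside 15.2% of all genes. In 9 of the 14 the cortex was higher, among them Kcnh5, Kcna2, Kcnh3, Cacna1d, Cacnb4, Kcnh1 and Kcnh7. In the other 5 the hippocampus was higher: Cacnb2, Scn3b, Cacnb3, Cacna1h and Scn8a. Of the 5 Kv10 to Kv12 genes in this set, 4 were among the 9. The auxiliary calcium channel subunits split, with Cacnb4 the most abundant beta subunit in cortex and Cacnb3 in hippocampus.

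**Figure D3:**
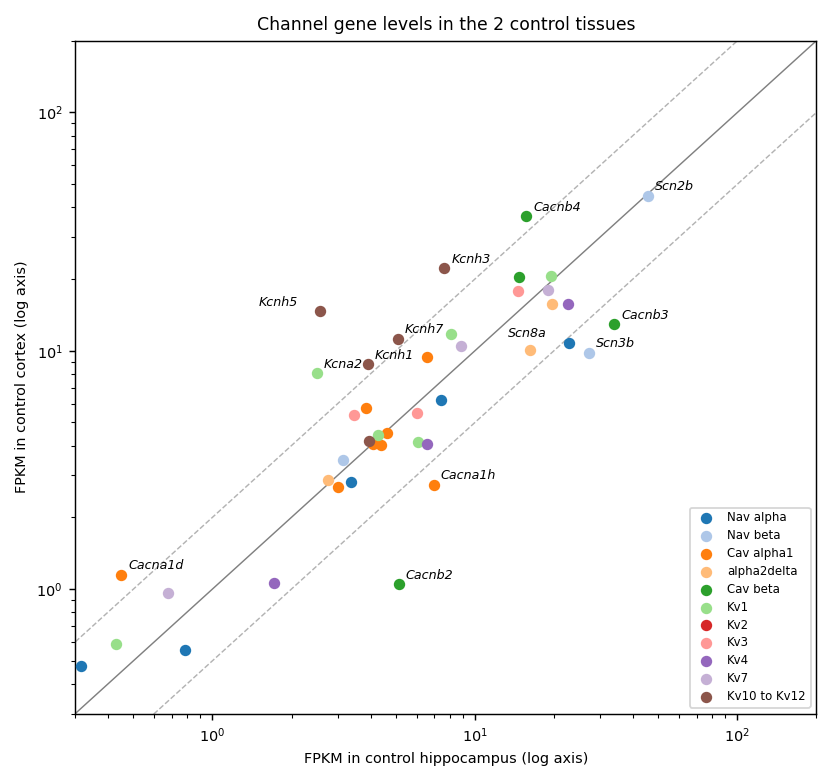
FPKM in control cortex (vertical log axis) against control hippocampus (horizontal log axis) for 43 channel genes kept in both tissues, coloured by subfamily, with a solid line at equality and dashed lines at 2-fold. Each point is a pair of pooled values without error bars. The labelled genes outside the dashed lines include Kcnh5 (14.6 and 2.56 FPKM) above and Cacnb2 (1.05 and 5.12 FPKM) below.

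The division of a gene between its rows limited several of these values. In each tissue 20 of 48 channel genes had more than 1 row. The most abundant row in control was not the most abundant one in every other condition for 4 of them in cortex and 8 in hippocampus, among them Cacna1a, Cacna1d, Cacna1g, Cacna2d2, Cacnb1, Kcnc1 and Kcnh1. In Cacna1a, the row that held 2.7 of 3.85 FPKM in control hippocampus in the authors' deposited table was at 0.0158 FPKM in TRF2-depleted and 0.00223 FPKM in DKO tissue. The sum of Cacna1a moved from 3.85 to 3.9 FPKM between control and TRF2-depleted tissue while its rows changed places, and the row had p = 0.249 in the authors' deposited table. Kcnh1 likewise kept a sum between 3.91 and 4.34 FPKM while row 1 went from 2.65 FPKM to 1.58 and 1.87 FPKM, as the authors' deposited table gives it. Cacna2d2 had sums of 2.76, 3.17 and 3.63 FPKM in the 3 hippocampus conditions, and 2 of its rows were tested in TRF2-depleted against control. The more abundant of these held 1.996 and 0.448 FPKM, with p = 0.241 in the authors' deposited table. The other went the opposite way, with 0.276 and 1.66 FPKM and p = 0.219 in the authors' deposited table. The log2 ratio to control thus changes sign with the row used, from 0.20 to -2.16 for Cacna2d2 and from 0.05 to -0.75 for Kcnh1 in TRF2-depleted hippocampus. Of channel rows 46, 53, 52 and 51 were tested in the 4 comparisons, 0 were called by Cuffdiff, and 5, 2, 3 and 3 had a p under 0.05.

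**Figure D4:**
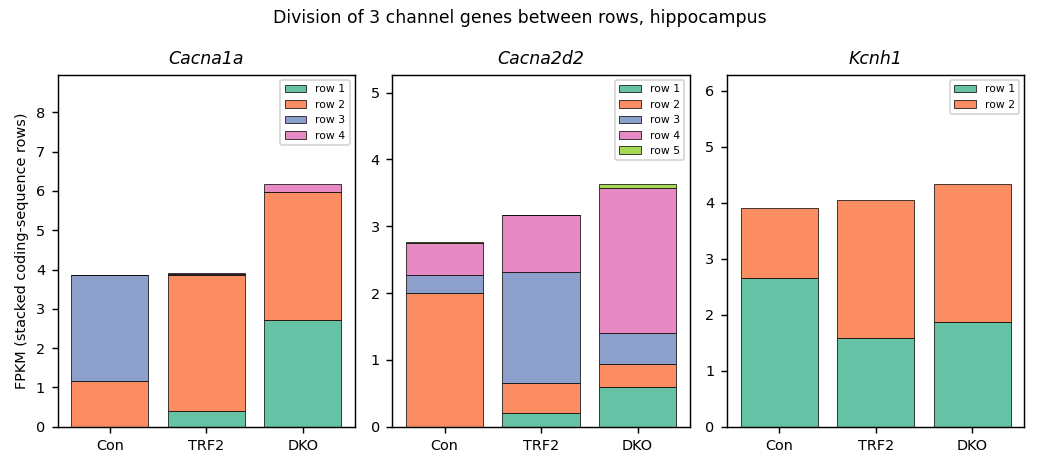
FPKM of the coding-sequence rows (stacked bars, vertical axis from 0) of Cacna1a, Cacna2d2 and Kcnh1 in control, TRF2-depleted and DKO hippocampus (horizontal axis). Each colour is 1 row of the gene and the bar height is the sum. Kcnh1 keeps its height, between 3.91 and 4.34 FPKM, with rows that change places.

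Across the 3 hippocampus conditions no condition dominated. Of the 48 channel genes kept there, 20 had their highest value in control, 13 in TRF2-depleted and 15 in DKO tissue, and 17, 18 and 13 had their lowest value there.

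The wider channel machinery was read from 7 lists of genes that modify, place or accompany these channels, and 0 of their members were called in any comparison by Cuffdiff. Of all tested genes, 6.6 percent had a p under 0.05 in cortex. The share was 5.21 percent in TRF2-depleted and 7.18 percent in DKO hippocampus against control, and 5.08 percent in DKO against TRF2-depleted. Among 11 Kv auxiliary subunits that passed the limit, which include the Kv4 partners Kcnip and Dpp, 0 had a p under 0.05 in cortex and 1, Kcnip4, in TRF2-depleted against control hippocampus (10.2 and 14.4 FPKM, with p = 0.0307 in the authors' deposited table). In DKO against control 1 had such a p, Kcne1l (0.976 and 1.85 FPKM, with p = 0.0327 in the authors' deposited table). The 9 silent Kv subunits that passed the limit, which modify Kv2 channels, gave 7 lower and 2 higher in TRF2-depleted and in DKO hippocampus against control, with 0 at a p under 0.05, and Kcnf1 in DKO against TRF2-depleted (8.61 and 7.2 FPKM, with p = 0.0449 in the authors' deposited table).

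Of 11 other calcium channel partners, Cacng5, a relative of the stargazin family, had the smallest p, at 1.68 FPKM in control and 2.96 FPKM in DKO hippocampus (p = 0.00035, q = 0.135 in the authors' deposited table). Rem2, a small GTPase that inhibits calcium channels, was at 3.77 and 5.08 FPKM in the same comparison (p = 0.0361 in the authors' deposited table). Thus 2 of the 8 tested (25%) had a p under 0.05 there, beside 7.18 percent of all tested genes, and 8 genes are too few to compare the shares. Stac2 was at 10.1 and 12.3 FPKM in DKO against TRF2-depleted (p = 0.0311 in the authors' deposited table). Of 8 partners of sodium channels and the axon initial segment, 1 had a p under 0.05, Fgf12 in cortex (31.2 and 35.4 FPKM in sum, with a tested row of 16.8 and 22.7 FPKM and p = 0.0382 in the authors' deposited table). Of 9 proteins that cluster Kv1 channels on the axon, 1 did, Lgi1 in DKO against control (34.0 and 28.8 FPKM, with p = 0.0415 in the authors' deposited table). Of the HCN and Nalcn genes 0 did in any comparison by Cuffdiff.

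The list of 28 other potassium channels, of which 25 passed the limit, is the largest of the 7. A p under 0.05 was held by 2 of 20 tested (10%) in cortex beside 6.6 percent of all genes, and by 4 of 22 (18.2%) in TRF2-depleted against control hippocampus beside 5.21 percent. In DKO it was held by 0 of 21 against control beside 7.18 percent, and by 2 of 22 (9.09%) against TRF2-depleted beside 5.08 percent. Kcnt2, a sodium-activated channel, was at 7.22 FPKM in control hippocampus and 4.25 FPKM after TRF2 depletion (p = 0.00245, q = 0.374 in the authors' deposited table), and its relative Kcnt1 at 2.57 and 3.81 FPKM in sum, with a tested row of 0.784 and 3.25 FPKM (with p = 0.0294 in the authors' deposited table). Kcnj12, an inward rectifier, was at 2.85 and 2.15 FPKM in cortex (p = 0.0079) and at 1.09, 1.93 and 1.37 FPKM in hippocampus, where the first 2 values had p = 0.0014 in the authors' deposited table. Its order between control and TRF2-depleted tissue thus differed between cortex and hippocampus, a difference that was not tested. Kcnj16, an inward rectifier of glia, was at 3.28, 4.52 and 3.53 FPKM in hippocampus (p = 0.00875 for TRF2-depleted against control in the authors' deposited table), and Kcnj2 at 2.87 and 3.62 FPKM in cortex (p = 0.0242 in the authors' deposited table).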

How the data were processed

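Libraries of total RNA came from NEBNext Ultra reagents (per the labels' protocols). CASAVA 1.8, TopHat2, Cufflinks, Cuffdiff and build mm10 were used, per the submitters' processing notes, while other versions, the settings and the gene models were not given in the sources used here. For each row the authors deposited FPKM values, 1 per condition pooled over replicates, with p-values and q-values for each comparison, per the file headers. The depth of the samples is unknown, and FPKM summed to between 159494 and 171147 per condition. A Benjamini-Hochberg adjustment over the 3 hippocampus comparisons gives the deposited q-values to within 5.26e-07. In cortex such an adjustment misses them by up to 0.335, and the deposited q is the smaller for each tested channel gene. What the cortex q-values were adjusted over was not given in the sources used here.

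FPKM were summed over the rows of each gene, and a gene was kept at 0.5 FPKM or more in 1 condition of a tissue. Log2 ratios come from the sums, without a pseudocount. A call rests on the deposited q of the most abundant tested row, and no test was refitted. Rows were not matched between tissues, since 243 row names point to different genes in the 2 tables. Named genes were Terf2, members with a p under 0.05, the 2 highest members of each of 11 subfamilies, those with the largest ratios, those at the limit, and list genes with a p under 0.05. Some channel genes enter the counts but are not reported here by name or drawn. Further channel genes were named after their values were seen. The members, 7 related lists and 15 marker lists were chosen with earlier results of these data known. Lists not described in the text had 0 called members in every comparison. Loci are the deposited ones, counted from 1, with overlaps from GENCODE (GRCm38). Software was pandas 2.3.3, numpy 2.4.6, matplotlib 3.10.9 and scipy 1.17.1 under Python 3.11.15, and the counting was tested on simulated data. Alternatives covered the q threshold, the adjustment behind q, the FPKM limit, the pseudocount, the row used and centring.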

Additional observations from a re-analysis of the deposited data

How the results depend on the processing

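All 24 alternative settings of the counts of called channel genes gave 0, as did the main setting. Most used Cuffdiff's deposited q, with thresholds of 0.01 and 0.1 and a limit of 1 FPKM among them. With 0 called in the main setting, the threshold of 0.01 and the limit of 1 FPKM could only give 0. The rest used a Benjamini-Hochberg adjustment of the deposited p within each comparison. All 24 alternative medians lay within 0.1 log2 units of the main median, between -0.05 and 0.09. Of 547 alternative log2 ratios of the 49 channel genes, 16 changed sign, 12 with the most abundant tested row in place of the sum and 4 with centring on all genes. These settings were added after seeing the data for the genes outside the rule for named genes. The row changed the sign for Cacna1a (in DKO against TRF2-depleted hippocampus from 0.66 to -0.09, and in cortex from 0.01 to -0.89), for Cacna2d2 (from 0.20 to -2.16 in TRF2-depleted against control), for Kcnh1 in all 3 hippocampus comparisons (from 0.15 to -0.50 in DKO against control), and for Cacnb1, Cacnb3, Cacnb4 and Cacna2d1 in hippocampus. Centring changed it for Kcnc1 and Scn2a1 in cortex and Scn3a and Scn3b in hippocampus, each within 0.1 of 0. No paired analysis was possible because the tables hold pooled values without replicates, and leaving out a replicate could not be run for the same reason. Depth is unknown, so counting error could not be given.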
